A study of Mus musculus with 6 samples.

Results

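Interferon-stimulated genes are the genes a cell switches on when interferon reaches its receptors. The 44 described here were picked by symbol from the 57180 genes of a count table, as known interferon targets of the mouse, and fall into 5 roles: 20 antiviral effectors, 8 interferon-gamma GTPases, 7 nucleic acid sensors, 4 genes of transcription and feedback, and 5 modulators. RNA was sequenced from macrophages of white adipose tissue, sorted on F4/80 and CD11b according to the series' design text, although the labels' protocol describes extraction from tissue. All mice were labelled WT and kept on a high-fat diet (HFD). In 3 libraries, labelled HFD, they received nothing further that the labels name, and in the other 3, labelled HFD+MGIG, the treatment was magnesium isoglycyrrhizinate (MGIG), a salt of a stereoisomer of the licorice compound glycyrrhizic acid. The sources used here give no dose, duration, age, sex or batch. Nothing in the labels ties a library to its own animal, so p-values reflect the spread among these 6 libraries alone, and that spread may be technical.

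Type I interferons act through a receptor that activates Jak1 and Tyk2. These kinases lead to a complex that holds Stat2 and Irf9 and binds DNA at the interferon-stimulated response element (ISRE). Interferon-gamma acts through its own receptor, Jak1 and Jak2, and its targets are known for the gamma-activated site (GAS). Antiviral effectors such as the Ifit, Oas and Mx proteins act on viral RNA and viral particles. The GTPases of the Irgm, Irg and Gbp families act on vacuoles that hold intracellular pathogens. Macrophages respond to both kinds of interferon.

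The groups differed in depth and in background before any single gene was compared. Total counts lay between 14437605 and 16740417 in the HFD libraries, and between 2214456 and 4904302 in the HFD+MGIG libraries. Gene families not used by macrophages (odorant, vomeronasal and taste receptors, hair keratin-associated proteins and beta-defensins) took 0.0624% to 0.280% of counts in HFD, and 2.93% to 6.42% of counts in HFD+MGIG. The 90th percentile of their counts per kb, multiplied by a gene's exon length, is called here the background bound of that gene. Each fold change is therefore given from 2 fits: one over all 23055 filtered genes, and one over 2604 protein-coding genes whose bound was at most 0.25 of their mean level (the background-limited genes). HFD+MGIG 2 stood apart, with the lowest total. The 15 macrophage markers summed to between 18214 and 20480 CPM (counts scaled to the library total) in HFD and between 7752 and 19874 in HFD+MGIG, and none was at 0. The 15 endothelial markers summed to between 3005 and 3425 CPM in HFD and between 617 and 1180 in HFD+MGIG, where their summed bound was 632. Sums were also lower without overlap for adipocyte markers (4334 to 6767 CPM in HFD, 1966 to 2748 CPM in HFD+MGIG), fibroblast markers (2712 to 4187, then 1368 to 2093), markers of pericytes and smooth muscle (1218 to 1886, then 462 to 809) and markers of neutrophils and monocytes (1150 to 1263, then 396 to 867). The same held for 8 dendritic cell markers (407 to 528 CPM in HFD, 304 to 345 in HFD+MGIG). It also held for 6 markers of plasmacytoid dendritic cells (283 to 315, then 232 to 256, under a summed bound of 279). The 15 T and NK cell markers summed to 48.1 to 57.9 CPM in HFD, and to 53.0 to 118 CPM in HFD+MGIG, under a summed bound of 228. The part of depth, background and other cell types in the results below was not tested, except where a value is given.

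Promoter sequences show what the members share beyond their names. In windows from 250 bases before to 50 bases after the RefSeq start (build GRCm38.p6), 34 of the 44 genes could be matched. The ISRE letters (GAAA, any 2 bases, GAAA), read on both strands and allowed to overlap, stood in 22 of these 34 (64.7%) and in 1079 of 27025 genes with such a window (3.99%). The GAS letters (TTC, any 3 bases, GAA), which read the same on both strands, stood in 10 of 34 members (29.4%) and in 2582 of all genes (9.55%). The roles overlapped in their letters: ISRE letters were in 10 of 17 effectors and 6 of 7 GTPases, and GAS letters in 6 of 17 effectors and 3 of 7 GTPases. A match is a description of the letters and not a bound site.

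The 150 bases before the start of 4 genes are shown because they display ISRE letters in effectors (Ifit1 and Isg15) and both ISRE and GAS letters in GTPases (Igtp and Gbp7), 5′ to 3′ on the strand of the gene, with ISRE and GAS letters in capitals. The Ifit1 stretch is chr19:34640739-34640888 (plus strand), that of Isg15 is chr4:156200819-156200968 (minus strand), that of Igtp is chr11:58199406-58199555 (plus strand) and that of Gbp7 is chr3:142530186-142530335 (plus strand).
Ifit1: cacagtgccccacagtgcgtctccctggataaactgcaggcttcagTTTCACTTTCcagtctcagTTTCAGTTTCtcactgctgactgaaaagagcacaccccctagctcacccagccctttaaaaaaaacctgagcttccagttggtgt
Isg15: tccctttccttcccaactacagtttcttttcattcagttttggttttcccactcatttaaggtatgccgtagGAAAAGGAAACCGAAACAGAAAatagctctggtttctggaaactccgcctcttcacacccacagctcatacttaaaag
Igtp: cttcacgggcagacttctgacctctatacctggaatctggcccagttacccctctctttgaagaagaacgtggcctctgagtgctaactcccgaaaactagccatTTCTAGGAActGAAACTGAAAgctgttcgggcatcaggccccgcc
Gbp7: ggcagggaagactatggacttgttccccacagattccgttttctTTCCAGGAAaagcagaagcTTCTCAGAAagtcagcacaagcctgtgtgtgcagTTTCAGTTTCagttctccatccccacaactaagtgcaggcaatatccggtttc
Ifit1 holds separate ISRE letters that begin 104 and 85 bases before the start. Isg15 holds 3 overlapping ISRE matches that begin 78, 72 and 66 bases before it. Igtp carries GAS letters at 45 bases and ISRE letters at 34 bases before the start, and Gbp7 carries GAS letters at 106 and 87 bases and ISRE letters at 53 bases. In these 4 stretches the GTPases held both kinds of letters and the effectors held the ISRE letters.

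**Figure D1:**
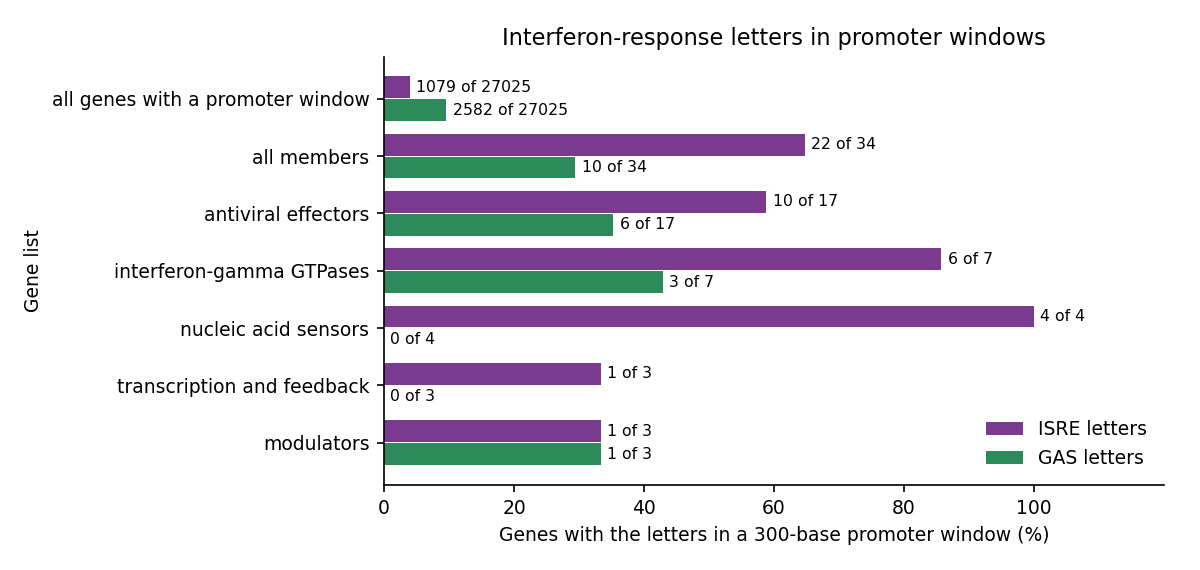
Share of genes (x axis, %) in each gene list (y axis) whose 300-base RefSeq promoter window holds the ISRE or the GAS letters, with counts beside the bars. ISRE letters stand in 64.7% of members and 3.99% of all genes, and both effectors and GTPases hold either kind.

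All 44 genes were expressed in HFD at a mean above their background bound. Per exon length, as TPM (counts scaled by exon length and then to the library), Ifitm3, a membrane protein that blocks viral fusion, was the most abundant at 2909 ± 239 (SD, n = 3 HFD libraries). Ifit1, which binds viral RNA caps, followed at 362 ± 1.58 TPM, and Oasl1, an oligoadenylate synthetase-like protein, stood at 294 ± 68.4 TPM. The DNA-sensor relatives Ifi207 and Ifi204 were at 239 ± 12.98 and 205 ± 25.2 TPM, and Rsad2 (viperin), which makes a chain-terminating nucleotide, was at 204 ± 51.7 TPM. Ifi204 and Rsad2 were neighbours in this order that did not differ beyond their spread. The highest GTPase, Iigp1, came ninth at 156 ± 24.4 TPM, within the spread of Isg15, the ubiquitin-like modifier, at 156 ± 20.7 TPM. At the low end stood Mx1 (13.1 ± 3.13), Mx2 (11.01 ± 1.43), Gbp5 (10.5 ± 0.660), Ifi44 (9.80 ± 4.47) and Oas3 (5.32 ± 3.25 TPM). Thus the HFD levels of the 44 genes spanned a wide range within each family, as between Oasl1 and Oas3 or Gbp2 (132 ± 7.79 TPM) and Gbp5. In HFD+MGIG the mean CPM of 9 members (Isg20, Mx1, Mx2, Oas3, Ifi44, Gbp5, Ddx58, Zbp1 and Xaf1) lay at or under the bound, so their levels there cannot be told apart from background.

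**Figure D2:**
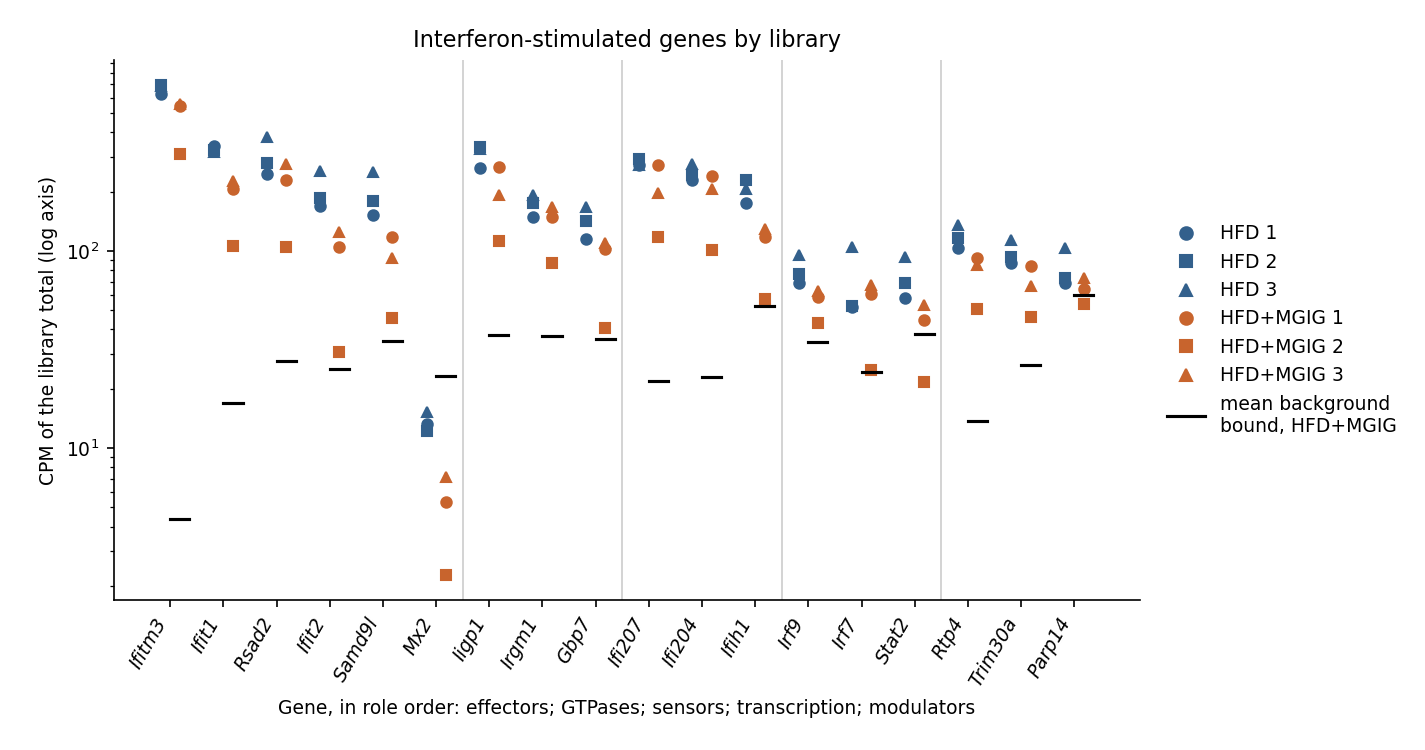
CPM of the library total (y axis, log scale) of 18 members in each library, ordered by role (x axis), with HFD in blue, HFD+MGIG in orange and a bar for the mean HFD+MGIG background bound. Ifitm3 lies far above its bound, while Mx2 lies under it in all 3 HFD+MGIG libraries, and HFD+MGIG 2 is the lowest library for each gene shown.

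Across all filtered genes with TMM factors, the median interferon-stimulated gene was lower in HFD+MGIG by about as much as the median background-limited gene. The background-limited set was chosen on the mean over all 6 libraries, so a gene in it can lie near its bound in HFD+MGIG. Of 44 members, 15 fell and 0 rose at an adjusted p under 0.05 (edgeR's quasi-likelihood test with Benjamini-Hochberg adjustment), and 22 had an unadjusted p under 0.05. That is 34.1% of the members, against 17.8% of all genes tested called lower and 42.9% called higher. Among the background-limited genes in the same fit, 43.0% were called lower and 2.11% higher. The 24 members that belong to that set had 9 lower calls, or 37.5%. The median log2 fold change of the 44 was -0.86, against 0.38 for all genes and -0.91 for the background-limited genes. Scaled to the macrophage markers instead of by TMM, the members' median was 0.03 and 22 of 44 were below 0, so the direction over the 44 depends on the scale. With that scaling in the background-limited fit, the median of its 24 members was -0.12, with 17 below 0. That of all genes of the set was then -0.05. In CPM, 18 of 44 members were lower and 1 was higher (Eif2ak2) without overlap of the groups, against 23.7% and 48.9% of all genes. Of the 2604 background-limited genes, 1772 were lower and 71 higher without overlap in CPM, so the members did not exceed them. DESeq2 called 20 members lower and 1 higher, where 20.2% and 44.6% of all genes were called, and limma voom called 33 and 1, where 29.8% and 46.7% were. The count of lower calls was 23 when HFD+MGIG 2 was left out, 3 when HFD 3 was, 7 when HFD 2 was and 8 when HFD+MGIG 3 was. The share of all genes called lower was then 22.2%, 9.18%, 10.97% and 8.58%. Mx2 and Gbp2 were the members called lower with each of the 6 libraries left out in turn. In bulk samples fewer cells of a type and less RNA per cell cannot be told apart.

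The background-limited fit held 24 of the 44 members: 19 were left out by the bound, and Irf7 because its merged exons form 1 block. The bound was compared with the mean over all 6 libraries, so a member could enter the set through its HFD level. In HFD+MGIG the mean bound exceeded 0.25 of the mean CPM for members on both sides of 0. Those below 0 in this fit were Ifit2, Samd9l, Gbp2, Gbp3, Gbp7 and Ifih1. Those above 0 were Oas1a, Irgm1, Ifi203, Ifi35 and Trim30a. Their changes on this scale are limited by background. No member passed the threshold in either direction (0 lower and 0 higher by edgeR, DESeq2 and limma voom; 2 with an unadjusted p under 0.05 by edgeR), where 6.26% of the genes of that fit were called lower and 4.49% higher by edgeR, 8.76% and 7.22% by DESeq2, and 9.06% and 8.37% by limma voom. The members' median log2 fold change was -0.01, with 12 below 0 and 12 above, against 0.03 for all genes of the set. The members ran from -0.62 (Ifit2) to 0.39 (Ifi203), with standard errors (SE) from 0.133 to 0.289. The smallest adjusted p was 0.138, for Samd9l. Levels of Samd9l and Gbp2 were lower in HFD+MGIG without overlap of the groups, 2 of 24 members or 8.33%, against 17.0% of the set, and no member was higher without overlap, against 16.8%. A p that misses the threshold does not show equal levels, and intervals are given below for the members that carry the comparison. With library totals in place of TMM factors this fit called 5 members lower (Ifih1, Gbp3, Gbp2, Ifit2 and Samd9l), where 26.3% of the set were called lower. The median of all genes of the set then moved to -0.63 and that of the members to -0.65.

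**Figure D3:**
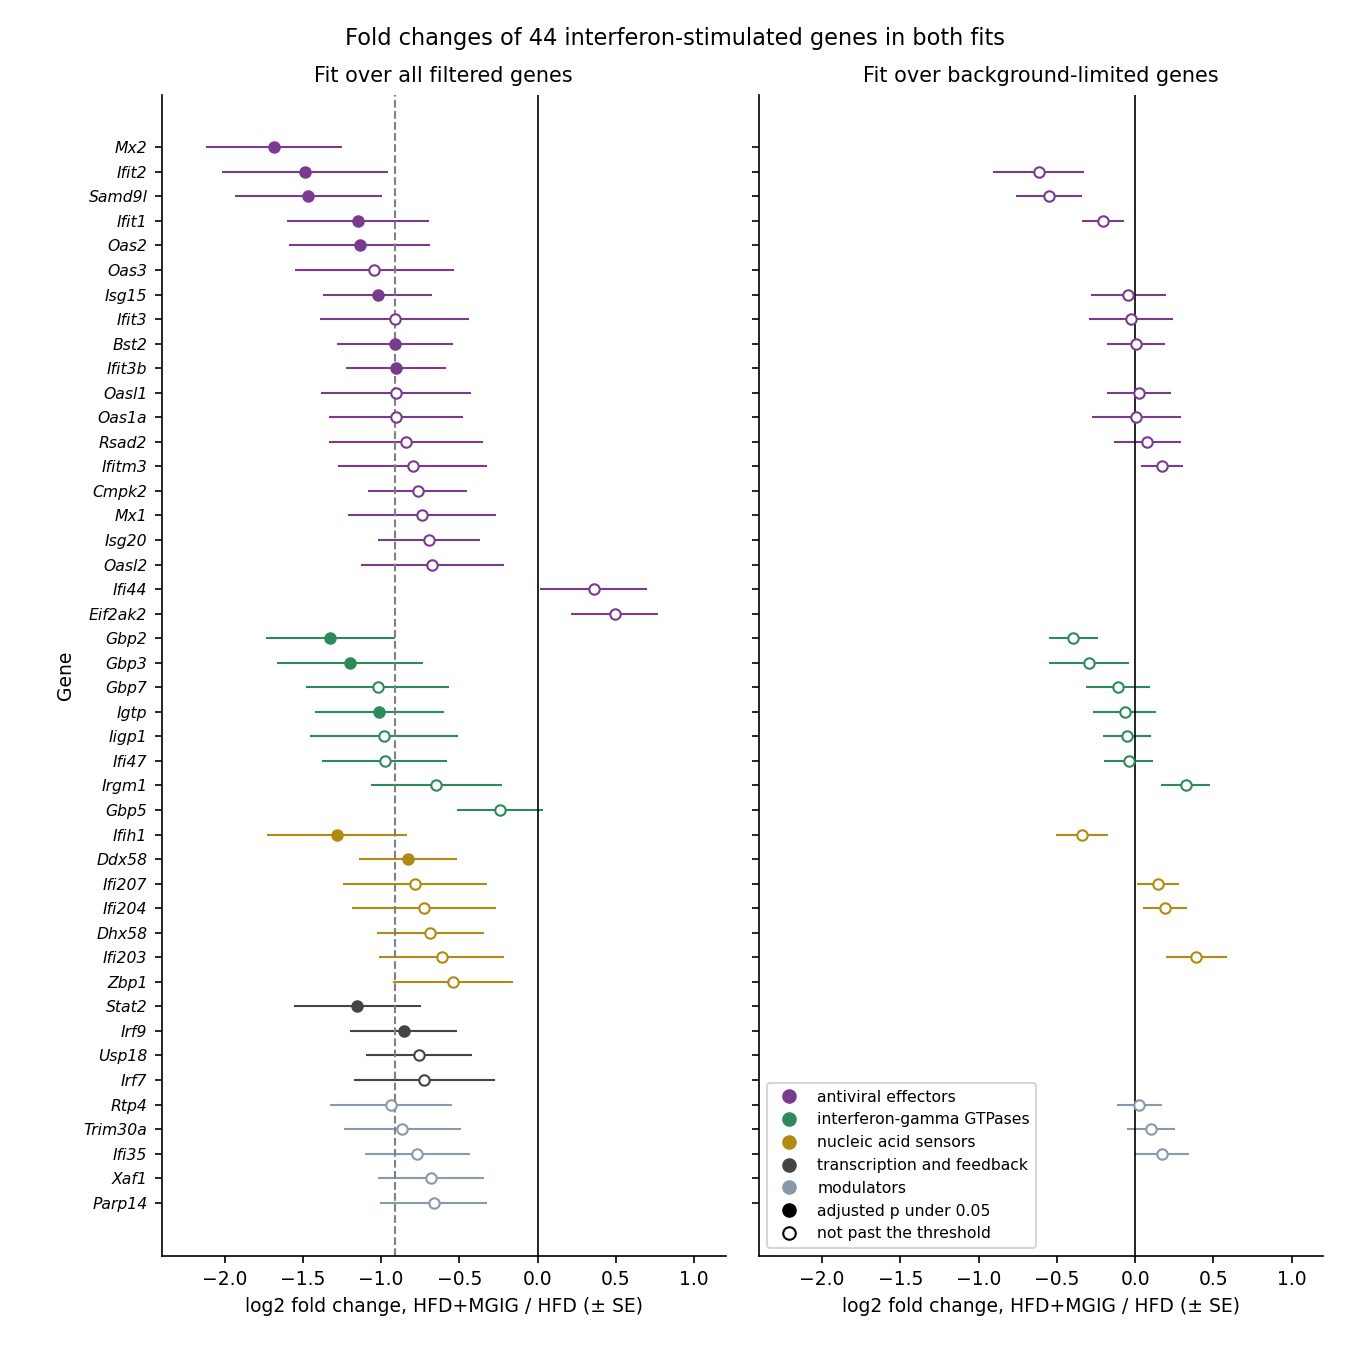
Log2 fold change HFD+MGIG over HFD (x axis, bars are ± SE) of each member (y axis, coloured by role) in the fit over all filtered genes (left) and over background-limited genes (right; 24 members). Filled points have an adjusted p under 0.05; the dashed line on the left is the median of the background-limited genes, -0.91, around which most members lie, while those on the right lie around 0.

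The antiviral effectors and the interferon-gamma GTPases had medians that lay close together in both fits. Over all filtered genes, 8 of 20 effectors were called lower and their median log2 fold change was -0.91, while 3 of 8 GTPases were called lower and theirs was -0.997. Over background-limited genes the medians were -0.01 for 10 effectors and -0.07 for 7 GTPases, with 0 calls in each. The effectors' median minus the GTPases' median was 0.09 and 0.06 in these fits. Members of both roles entered the background-limited set with a mean HFD+MGIG bound above 0.25 of their mean CPM there. These were the effectors Ifit2, Oas1a and Samd9l and the GTPases Irgm1, Gbp2, Gbp3 and Gbp7. The contrast between the roles on that scale, also by library, is therefore limited by background. On the background-limited scale, the effectors minus the GTPases in the median deviation from the HFD mean were -0.02, -0.11 and 0.15 in HFD 1 to 3, and 0.03, -0.04 and 0.09 in HFD+MGIG 1 to 3. The groups overlapped, so the contrast between the roles did not exceed the spread between libraries. In CPM, over all 20 effectors and 8 GTPases and without scaling by length, the median log2 level of effectors minus that of GTPases was -1.33, -1.29 and -0.85 in HFD. It was -0.81, -0.31 and -0.92 in HFD+MGIG, so it was higher in HFD+MGIG 1 and 2 than in each HFD library, while HFD+MGIG 3 lay below HFD 3. This measure takes in the 11 members of both roles outside the background-limited set.

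Among the effectors, the 3 most abundant by CPM were Ifitm3, Ifit1 and Rsad2. Ifitm3 had 629, 699 and 689 CPM in HFD and 546, 311 and 560 in HFD+MGIG. All HFD+MGIG libraries were lower on this scale. The log2 fold change was -0.80 (SE 0.475, edgeR adjusted p = 0.155, and 0.0308 without HFD+MGIG 2) over all genes and 0.17 (SE 0.133, 95% interval -0.13 to 0.47, adjusted p = 0.458) over background-limited genes. Scaled to the background-limited genes, its levels were 958, 1075 and 1060 in HFD and 1072, 1170 and 1238 in HFD+MGIG, so the groups overlapped and the order turned.

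Ifit1 (ENSMUSG00000034459) had 341, 325 and 319 CPM in HFD and 206, 106 and 226 in HFD+MGIG, with tight HFD libraries and no overlap. It was lower by a log2 change of -1.149 over all genes (SE 0.456, edgeR adjusted p = 0.0444). Leaving out HFD 1 gave an adjusted p of 0.0813, HFD 2 0.0945, HFD 3 0.106 and HFD+MGIG 3 0.0895, each above 0.05. Over background-limited genes the change was -0.21 (SE 0.135, interval -0.51 to 0.10, adjusted p = 0.368), where levels were 519, 500 and 491 in HFD and 405, 400 and 500 in HFD+MGIG. HFD+MGIG 3 there lay among the HFD libraries. Rsad2 had 245, 281 and 377 CPM in HFD and 229, 104 and 277 in HFD+MGIG. HFD 3 was the highest library for it, and the groups overlapped. Its change was -0.84 over all genes (SE 0.491, adjusted p = 0.147) and 0.08 over background-limited genes (SE 0.215, interval -0.41 to 0.57, adjusted p = 0.842).

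The largest falls over all filtered genes were in Mx2, Ifit2 and Samd9l. Mx2, a dynamin-like GTPase that acts on incoming virus, had 13.2, 12.3 and 15.2 CPM in HFD and 5.30, 2.26 and 7.14 in HFD+MGIG. There was no overlap between groups, but every HFD+MGIG value was under the mean bound of 23.1 CPM. Mx2 fell by 1.69 on the log2 scale (SE 0.437, edgeR adjusted p = 0.00538). Ifit2, an RNA-binding partner of Ifit1, had 170, 185 and 255 CPM in HFD and 105, 30.7 and 124 in HFD+MGIG. HFD+MGIG 2 lay far under the others. Ifit2 fell by 1.49 over all genes (SE 0.53, adjusted p = 0.0285, and 0.0851 without HFD 3), and its change was -0.62 over background-limited genes (SE 0.289, interval -1.28 to 0.05, adjusted p = 0.231). Samd9l, a restriction factor for poxviruses, had 152, 178 and 253 CPM in HFD and 117, 45.6 and 91.96 in HFD+MGIG, without overlap. It fell by 1.47 over all genes (SE 0.471, adjusted p = 0.0178, with 0.0729 without HFD 3 and 0.0669 without HFD+MGIG 3), and its change was -0.55 over background-limited genes (SE 0.21, interval -1.03 to -0.07, adjusted p = 0.138). The interval of this single gene lies under 0, but the p did not hold over all genes of the set. Its mean bound in HFD+MGIG was 34.8 CPM against a mean of 85.0 CPM, and that of Ifit2 was 25.2 against 86.7. Both thus entered the set through their HFD levels, and their changes on this scale are limited by background.

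The other effectors called lower over all genes were Ifit3b, Isg15, Oas2, Bst2 (tetherin, which holds budding virus at the membrane) and Ifit1, above. Leaving out 1 library took the adjusted p of Ifit3b to 0.131 (HFD 3), that of Isg15 to 0.0724 (HFD 2), that of Oas2 to 0.212, 0.153 and 0.132 (HFD 3, HFD+MGIG 2 and HFD+MGIG 3), and that of Bst2 to 0.0583, 0.0590, 0.141 and 0.0909 (HFD 1, HFD 2, HFD 3 and HFD+MGIG 3). Isg15 and Bst2 were at -0.05 and 0.0046 in the background-limited fit (adjusted p = 0.924 and 0.992). Ifit3, Oasl1 and Oas1a, at -0.03, 0.02 and 0.01 there, also lay next to 0. Eif2ak2 (PKR, the kinase that halts translation on double-stranded RNA) went the other way: it had 21.7, 22.3 and 29.2 CPM in HFD and 37.6, 42.9 and 48.1 in HFD+MGIG, without overlap, beside a mean HFD+MGIG bound of 32.8 CPM. Its change was 0.49 (SE 0.279, edgeR adjusted p = 0.137), and the adjusted p was 0.0285 by DESeq2 and 0.00771 by limma voom. Ifi44 was at 0.36 with an adjusted p of 0.364. Eif2ak2 and Ifi44 were the only members above 0 when all filtered genes were fitted by edgeR with TMM factors, and both were chosen for mention after their values were seen.

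Of the interferon-gamma GTPases, Iigp1, Irgm1 and Gbp7 had the highest CPM. Iigp1, which coats parasite vacuoles, had 263, 339 and 329 CPM in HFD and 266, 113 and 193 in HFD+MGIG. HFD+MGIG 1 lay above HFD 1. Its change was -0.98 over all genes (SE 0.473, edgeR adjusted p = 0.0865, with 0.0327 without HFD+MGIG 1 and 0.0227 without HFD+MGIG 2) and -0.05 over background-limited genes (SE 0.154, interval -0.40 to 0.30, adjusted p = 0.854). Irgm1, a regulator of the other immunity-related GTPases and of autophagy, had 148, 175 and 192 CPM in HFD and 148, 86.7 and 167 in HFD+MGIG. It stood highest among the GTPases over background-limited genes, at 0.32 (SE 0.155, interval -0.03 to 0.68, adjusted p = 0.241), with 226, 268 and 296 in HFD and 291, 326 and 369 in HFD+MGIG. HFD 3 and HFD+MGIG 1 were the libraries that overlapped. The mean bound of Irgm1 in HFD+MGIG was 37.2 CPM against a mean of 134 CPM, so it entered the set through its HFD level. Its change was -0.65 over all genes (SE 0.418, adjusted p = 0.186).

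Gbp7, a guanylate-binding protein, had 115, 143 and 167 CPM in HFD and 103, 40.6 and 109 in HFD+MGIG. Its changes were -1.02 (SE 0.457, edgeR adjusted p = 0.0684, and 0.0161 without HFD+MGIG 2) over all genes and -0.11 (SE 0.204, interval -0.57 to 0.36, adjusted p = 0.759) over background-limited genes. Gbp2, which helps break open pathogen vacuoles, was the GTPase with the largest fall. It had 112, 110 and 118 CPM in HFD and 62.4, 29.4 and 72.2 in HFD+MGIG, and fell by 1.33 over all genes (SE 0.411, adjusted p = 0.0148). Over background-limited genes its change was -0.39 (SE 0.159, interval -0.76 to -0.03, adjusted p = 0.163), with 171, 170 and 182 in HFD and 123, 111 and 160 in HFD+MGIG. Every HFD+MGIG library was lower than every HFD library on both scales, without passing the threshold on the second. The mean bound of Gbp2 in HFD+MGIG was 16.1 CPM against a mean of 54.6 CPM, so it too entered the set through its HFD level. Gbp3 and Igtp were the other GTPases called lower over all genes, and they were at -0.30 and -0.07 over background-limited genes (adjusted p = 0.50 and 0.854). Their calls over all genes were lost when HFD 2 was left out (adjusted p = 0.0507 and 0.110) and when HFD 3 was (0.0912 and 0.129), and that of Igtp also for HFD+MGIG 3 (0.0975). Igtp shares 162 exon bases with Irgm2 on the same strand, and the Gbp, Oas, Ifit3 and Ifi20x genes have near copies, so their counts may be split between copies.

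The nucleic acid sensors recognise foreign or misplaced RNA and DNA. Ifih1 (MDA5), the sensor of long double-stranded RNA, had 175, 228 and 206 CPM in HFD and 117, 57.4 and 130 in HFD+MGIG. It fell by 1.28 over all genes (SE 0.447, edgeR adjusted p = 0.026). The call was lost without HFD 2, HFD 3 or HFD+MGIG 3, with adjusted p of 0.0702, 0.0679 and 0.0549. Ifih1 was at -0.34 over background-limited genes (SE 0.164, interval -0.71 to 0.03, adjusted p = 0.242). Its mean bound in HFD+MGIG was 52.3 CPM against a mean of 101.5 CPM, so it also entered that set through its HFD level. Ddx58 (RIG-I) was the other sensor called lower over all genes, at -0.83 (adjusted p = 0.036), with its HFD+MGIG mean at or under the bound. That call was lost when HFD 2, HFD 3, HFD+MGIG 1 or HFD+MGIG 3 was left out, with adjusted p of 0.0671, 0.194, 0.0538 and 0.160, and with library totals (0.134). Ifi204 had 229, 243 and 276 CPM in HFD and 239, 102 and 205 in HFD+MGIG. Ifi207 had 272, 292 and 272 in HFD and 274, 117 and 197 in HFD+MGIG. These DNA-sensor relatives overlapped between the groups, and stood at 0.19 (interval -0.13 to 0.51) and 0.15 (interval -0.16 to 0.45) over background-limited genes, and at -0.73 and -0.78 over all genes. The 4 sensors of the background-limited set had a median of 0.17. Among them Ifi203, at 0.39, had a mean bound of 43.0 CPM against a mean of 123 CPM in HFD+MGIG.

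Transcription and feedback were represented by Irf7, Irf9, Stat2 and Usp18. Irf7, the factor that amplifies type I interferon genes, had 52.3, 52.3 and 105 CPM in HFD and 60.5, 24.8 and 67.1 in HFD+MGIG, so that HFD 3 held about as much as HFD 1 and HFD 2 together. Its change over all genes was -0.72 (SE 0.452, edgeR adjusted p = 0.173). Irf9, the DNA-binding part of the complex on ISREs, had 68.8, 76.7 and 95.8 in HFD and 58.1, 43.4 and 62.6 in HFD+MGIG and fell by 0.86 (SE 0.341, adjusted p = 0.045). Leaving out HFD 1, HFD 2, HFD 3 or HFD+MGIG 3 took the adjusted p of Irf9 to 0.0547, 0.107, 0.160 or 0.103. Its partner Stat2 had 57.4, 69.1 and 93.4 in HFD and 44.8, 21.7 and 53.2 in HFD+MGIG with a log2 change of -1.151 (SE 0.407, adjusted p = 0.0277, and 0.0975 without HFD 3). The groups did not overlap in CPM for Irf9 and Stat2, and none of the 4 genes could be placed on the background-limited scale. Irf7 overlaps Phrf1 on the opposite strand by 45 exon bases and the strand of counting is not given, and Irf9 shares 123 exon bases with Rnf31.

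Of the 5 modulators, 0 passed the threshold in either fit by edgeR, and 3 had an unadjusted p under 0.05 over all genes. Over all genes limma voom called all 5 lower (adjusted p from 0.00274 to 0.0364), where it called 29.8% of all genes lower. DESeq2 called Rtp4 (0.0185) and Trim30a (0.0326), where it called 20.2% of all genes lower. By edgeR, 17.8% of all genes and 43.0% of background-limited genes were called lower in that fit. Rtp4, a chaperone-like protein with antiviral and signalling roles, had 104, 117 and 136 CPM in HFD and 91.8, 50.6 and 84.8 in HFD+MGIG, and was at -0.94 over all genes (SE 0.389, edgeR adjusted p = 0.0524) and 0.03 over background-limited genes (SE 0.145, interval -0.30 to 0.36). Trim30a, a ubiquitin ligase family member that restrains inflammatory signalling, had 86.8, 92.7 and 114 in HFD and 84.3, 46.1 and 66.1 in HFD+MGIG, at -0.86 (adjusted p = 0.0614) and 0.10 (interval -0.25 to 0.45). Parp14, an ADP-ribosyltransferase, had 68.4, 72.7 and 104 in HFD and 64.1, 53.7 and 73.2 in HFD+MGIG, at -0.66 over all genes (adjusted p = 0.106). In CPM the groups did not overlap for Rtp4 and Trim30a, and did for Parp14. Rtp4 and Trim30a passed the threshold over all genes without HFD+MGIG 1 (adjusted p = 0.0335 and 0.0245) and without HFD+MGIG 2 (0.0115 and 0.022). The 3 modulators on the background-limited scale had a median of 0.10. Of these, Trim30a and Ifi35 had mean HFD+MGIG bounds of 26.3 and 11.1 CPM against means of 65.5 and 28.3 CPM. Both entered that set through their HFD levels.

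Within each group, the libraries differed in interferon-stimulated genes as much as the groups did. On the background-limited scale, the median deviation of the 24 members from the HFD mean, in log2, was -0.21 in HFD 1, -0.02 in HFD 2 and 0.20 in HFD 3. It was -0.01 in HFD+MGIG 1, -0.21 in HFD+MGIG 2 and 0.17 in HFD+MGIG 3. HFD 3 was the highest HFD library for 18 of 24 members (75.0%), against 35.1% of all genes of the set. HFD+MGIG 3 was the highest of its group for 17 of 24 (70.8%), against 30.3%. The effectors stood at -0.24, -0.08 and 0.33 in HFD and -0.06, -0.26 and 0.25 in HFD+MGIG, and the GTPases at -0.21, 0.03 and 0.18 and at -0.09, -0.22 and 0.16, so both roles moved with the same libraries. Over all members in CPM, HFD 3 exceeded the other HFD libraries for 36 of 44, by a median log2 difference of 0.52 for effectors, 0.19 for GTPases, 0.55 for sensors, 0.63 for transcription and feedback and 0.33 for modulators, and -0.01 for background-limited genes. The 14 macrophage markers of the set were at -0.09, -0.01 and 0.10 in HFD and 0.40, -0.22 and 0.24 in HFD+MGIG, with HFD 3 the highest HFD library for 12 and HFD+MGIG 1 the highest of its group for 10. Their part in the pattern was not tested. These libraries were singled out after their values were seen.

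**Figure D4:**
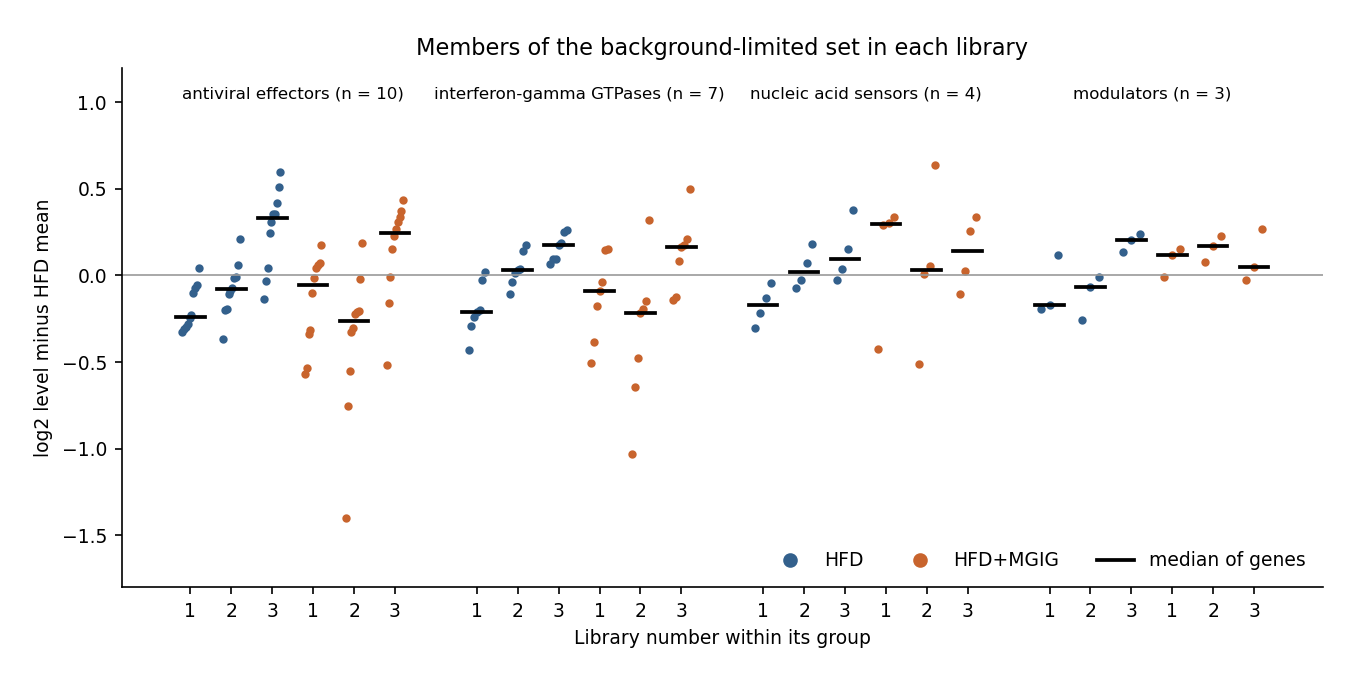
Deviation of each of the 24 members of the background-limited set from its HFD mean (y axis, log2) by library number (x axis), grouped by role, with HFD in blue, HFD+MGIG in orange and a bar for the median. Effectors and GTPases are highest in HFD 3 and HFD+MGIG 3 of their groups, and the groups overlap.

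Upstream of these genes, the interferon-beta transcript itself was present. Of 21 interferon ligands, 12 had no count in any HFD library and 4 none in any HFD+MGIG library, and 2 could be tested. Ifnb1, named here after its values were seen, had 47.9, 54.9 and 41.7 CPM in HFD, far above its mean bound of 0.190 there, and 30.1, 17.6 and 56.9 CPM in HFD+MGIG, above its mean bound of 4.80. HFD+MGIG 3 was the highest of the 6 libraries. Its change over all genes was -0.74 (SE 0.407, edgeR adjusted p = 0.129, and 0.0294 without HFD+MGIG 3), and as a gene of 1 exon it was outside the background-limited set. Ifng, the T and NK cell ligand, was at 1.55 to 2.98 CPM in HFD and 1.35 to 8.56 in HFD+MGIG, beside a mean bound of 8.30.

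Of 26 receptors and signalling genes tested over all genes, 8 fell and 1 rose, with a median of -0.95, where 17.8% of all genes and 43.0% of background-limited genes were called lower. Of the 13 on the background-limited scale, 2 fell (Jak2 and Socs3) and 0 rose, with a median of -0.10, where 6.26% of the set were called lower. Jak2, the kinase of the interferon-gamma receptor, had 130, 149 and 161 CPM in HFD and 62.4, 30.3 and 70.6 in HFD+MGIG, where its mean bound was 32.2 CPM against a mean of 54.4 CPM. It thus belonged to the background-limited set through its HFD level, and its HFD+MGIG level was near background. It fell by 1.71 over all genes (SE 0.426, edgeR adjusted p = 0.00432) and by 0.77 over background-limited genes (SE 0.165, adjusted p = 0.0231). The second call was lost in 4 of the 6 fits that left out 1 library: the adjusted p was 0.0516 when HFD 1 was left out, 0.0829 for HFD 2, 0.0758 for HFD 3 and 0.0751 for HFD+MGIG 1. Socs3, a feedback inhibitor of cytokine receptors and named after its values were seen, had 450, 359 and 342 in HFD and 186, 70.4 and 137 in HFD+MGIG, and fell by 1.81 over all genes (SE 0.491, adjusted p = 0.00717) and by 0.91 over background-limited genes (SE 0.167, adjusted p = 0.0133, and 0.0581 without HFD 1). With the 90th percentile of background subtracted, Jak2 and Socs3 were at -1.60 and -0.72, with adjusted p of 0.62 and 0.148. Both genes were without overlap between the groups. The receptor chains Ifnar1, Ifnar2 and Ifngr1 were at -0.17, 0.25 and -0.0037 over background-limited genes (adjusted p = 0.467, 0.288 and 0.991). Ticam1, the adaptor of Toll-like receptor 3, had 18.7, 17.6 and 16.5 CPM in HFD and 6.99, 6.77 and 12.4 in HFD+MGIG, all of the latter under its mean bound of 19.2. Its change over all genes was -1.29 (adjusted p = 0.00703, with 0.686 when scaled to macrophage markers and 0.0509 with at least 5 CPM in 3 libraries). Ifnlr1, the lambda-interferon receptor chain and the 1 called higher, had 0, 0.139 and 0.248 CPM in HFD and 1.93, 4.97 and 3.06 in HFD+MGIG, under its mean bound of 26.8 CPM there.

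Further interferon targets outside the 44 were also mostly below 0 over all genes. Of 43 further type I targets tested, 7 fell and 1 rose over all genes (median -0.76), where 17.8% of all genes and 43.0% of background-limited genes were called lower, and 0 of 21 were called over background-limited genes by edgeR (median 0.11, with 2 at an unadjusted p under 0.05). Ifi27 had 113, 81.4 and 71.7 CPM in HFD and 51.8, 37.5 and 48.5 in HFD+MGIG. Ms4a4c had 19.7, 14.4 and 27.6 in HFD and 13.01, 6.32 and 11.4 in HFD+MGIG, where its mean of 10.3 CPM lay under its mean bound of 11.2. They fell by 1.23 and 1.25 (edgeR adjusted p = 0.00765 and 0.014; without HFD 3 that of Ms4a4c was 0.0826), and Ifi27 was at -0.24 over background-limited genes (adjusted p = 0.496). Scaled to macrophage markers, the adjusted p was 0.624 for Ifi27 and 0.563 for Ms4a4c. Slfn9, the 1 that rose, had 14.0, 19.9 and 20.4 CPM in HFD and 52.1, 94.4 and 72.6 in HFD+MGIG, beside a mean bound of 38.2 CPM there. Its change was 1.65 (SE 0.308, adjusted p = 0.000654). Of 20 further interferon-gamma targets tested, 12 fell and 0 rose over all genes (median -1.09), beside the same shares of 17.8% and 43.0%. They include Ciita, the switch for MHC class II genes, at -1.35 (edgeR adjusted p = 0.00517), the chemokine Cxcl9 at -1.07 (adjusted p = 0.00677) and Gbp4 at -1.57 (adjusted p = 0.00695). Ciita had 57.5, 80.3 and 77.1 CPM in HFD and 22.4, 37.03 and 47.1 in HFD+MGIG. Cxcl9 had 44.9, 48.97 and 42.99 in HFD and 21.2, 27.1 and 33.2 in HFD+MGIG. Gbp4 had 106, 152 and 152 in HFD and 52.1, 35.2 and 81.97 in HFD+MGIG. These groups did not overlap, and the Ciita values in HFD+MGIG were all under its mean bound over these 3 libraries. The mean bounds in HFD+MGIG were 61.1 CPM for Ciita, 19.3 for Cxcl9 and 48.0 for Gbp4. Scaled to macrophage markers, their adjusted p was 0.814, 0.967 and 0.136. Of the 9 on the background-limited scale, 0 fell and 1 rose (median -0.10). This was Gm4951, a GTPase of the immunity-related family named after its values were seen, with 31.8, 27.7 and 49.4 CPM in HFD and 55.4, 28.4 and 45.1 in HFD+MGIG. Its change was 0.92 over background-limited genes (SE 0.234, adjusted p = 0.0417) and -0.03 over all genes (adjusted p = 0.947). The call was lost without each library other than HFD 3, with adjusted p from 0.0562 to 0.152. Its mean bound in HFD+MGIG was 16.9 CPM against a mean of 43.0 CPM. With the 90th percentile of background subtracted it was at 0.43 (edgeR adjusted p = 0.733). The edgeR adjusted p was 0.0735 with the median background subtracted and 0.131 with macrophage scaling. DESeq2 (0.00583) and limma voom (0.0173) kept the call.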

How the data were processed

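Estimated counts per gene were deposited by the authors as 1 table of 6 libraries. They need not be whole: in each library 33.3% to 41.8% of the detected genes held a fraction. Per the submitters' processing notes, the tools were fastp, HISAT2 and StringTie and the build was mm10. The sources used here give no versions, counting program or strand. Per the labels' protocols, libraries were made from total RNA with a low-input SMART-Seq kit, which amplifies cDNA. GENCODE M21 (mm10) gave symbols, exon lengths and positions for 51884 of 57180 IDs, and RefSeq (GRCm38.p6) gave promoters.

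Counts were rounded to whole numbers. CPM used the library total, and TPM divided by merged exon length. edgeR 4.0.16 (R 4.3.3) ran its robust quasi-likelihood test with TMM factors, filterByExpr and group as the only term, adjusted by Benjamini-Hochberg over all genes of the fit at 0.05. The second fit used its own TMM factors over the 2604 background-limited genes (bound from 1596 silent-family genes, at least 2 exon blocks). Levels on that scale are CPM of the counts on these genes alone, after TMM. DESeq2 1.42.0 and limma 3.58.1 (voom with sample quality weights) were alternatives, with other scalings, filters and bounds, a block on the replicate number, and fits without each library in turn. The edgeR fits were tested on simulated data with 200 changed genes. All simulated libraries had HFD proportions, with as many changes up as down and no added background. The simulation therefore does not test how the fits behave under the background difference seen here.

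The members, lists, background-limited set and alternatives were chosen with earlier results of these data known. Values per library are given for the 3 members of each role with the highest mean CPM, for members called on the background-limited scale, and for the 3 largest changes called over all genes in each direction, and for pathway genes for up to 3 a list with the smallest p among those called. Genes named beyond this were chosen after their values were seen. The symbols Mb21d1, Mnda, Ifgga2, Ifgga3 and Ifgga4 were not matched in the annotation.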

Additional observations from a re-analysis of the deposited data

How the results depend on the processing

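Of the 15 members called lower over all filtered genes, counts under other settings were 6 with library totals, 1 (Ifit2) scaled to macrophage markers, 33 with limma voom, 23 without a filter and 3 with at least 5 CPM in 3 libraries, and ran from 3 to 23 with each library left out. The share of all genes called lower, 17.8% by edgeR with TMM, was 10.97%, 1.21%, 29.8%, 10.9% and 10.7% under those settings in turn, and 8.58% to 22.2% with each library left out. The count of higher calls, 0 by edgeR with TMM, was 1 (Eif2ak2) with DESeq2 size factors, library totals, macrophage scaling, DESeq2, limma voom and the filter at 5 CPM, and 0 to 1 with each library left out. On the background-limited scale 0 members were called lower under the settings run except library totals, with 5, where 26.3% of the set were called lower. The effectors' median minus the GTPases' there, 0.06, was 0.20 with limma voom and 0.21 with the 90th percentile of background subtracted, and -0.02 to 0.16 with each library left out; the cause was not tested. The median of all genes moved from 0.38 (TMM) to 0.54 with DESeq2 size factors, 0.71 with library totals and 1.60 with macrophage scaling, and that of the members from -0.86 to -0.74, -0.57 and 0.03.

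Single genes changed sign as follows. Scaled to macrophage markers over all genes: Ifitm3 0.11, Irgm1 0.27, Ifi204 0.11, Ifi207 0.065, Irf7 0.10, Irf9 0.14, Trim30a 0.062 and Parp14 0.37. Over background-limited genes with library totals: Rsad2 -0.56, Ifitm3 -0.51, Irgm1 -0.35, Ifi204 -0.45, Ifi207 -0.51, Trim30a -0.57 and Rtp4 -0.65; with macrophage scaling: Rsad2 -0.0044 and Rtp4 -0.036; with the 90th percentile subtracted: Ifit1 0.12, Iigp1 0.028 and Trim30a -0.41; with a bound of at most 0.5 of the mean level: Rtp4 -0.013. With each library left out there, Rsad2 ran from -0.13 to 0.26, Trim30a from -0.0014 to 0.22, Rtp4 from -0.084 to 0.12, Iigp1 from -0.18 to 0.0081 and Gbp7 from -0.27 to 0.031.

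Correlations of deviations between same-numbered HFD and HFD+MGIG libraries were 0.05, 0.26 and 0.08 over all filtered genes and -0.14, 0.12 and 0.20 over background-limited genes. Not every library correlated best with its own number. With 3 libraries a group that also differ in depth and background, these values cannot settle whether same-numbered libraries are paired, and the labels do not say. With the replicate number as a block, 19 members were called lower and 0 higher over all genes, where 18.7% of all genes were called lower. Over background-limited genes 0 members were called, where 4.72% of the set were called lower. The contrast of effectors and GTPases was 0.09 and 0.04 in these fits.

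In HFD+MGIG, where totals were lower and the background per kb was higher, levels near the bound limit what can be read: 3 members (Mx2, Oas3 and Gbp5) were under it in all 3 of these libraries, 18 in none, and 6 of the 24 on the background-limited scale were under it in HFD+MGIG 2 alone.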
